A study of Mus musculus with 18 samples.

Results

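The genes of antiproteases and of Pate proteins were followed in the mouse caput epididymis. They were every entry of the count tables named Wfdc, Spink, Spint or Pate with a number, together with Eppin. Of 53819 gene entries in the tables, 50 matched, and the 32 that had at least 10 counts in at least 3 of the 18 libraries are described. The study sequenced RNA from isolated caput portions of C57BL/6J mice in 6 groups of 3 libraries. A control, a 6% ethanol (EtOH) and a 10% EtOH group make up the 10-week set. The other 3 groups carry the same treatments with the word cessation, a month of it by the series title. The route of EtOH, the length of treatment before cessation and the age of the mice are not stated in the labels. Nor do they tie any samples to a common litter or day, so p-values measure the spread between these libraries, some of which may be technical.

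Wfdc proteins carry the WAP domain, Spink proteins the Kazal domain and Spint proteins the Kunitz domain, all of them compact disulfide-bonded folds, many of which block serine proteases by sitting in the active site. Eppin joins a WAP and a Kunitz domain and coats the sperm surface, where it binds semenogelin. Pate proteins belong to the Ly6/uPAR family, whose fold is not an inhibitor fold, and many are secreted by the male tract onto sperm. In the epididymis such proteins enter the lumen through which sperm pass, where proteolysis of the sperm surface is part of maturation.

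Libraries held 10719320 to 21067237 assigned reads. Gpx5, the antioxidant enzyme that marks the caput, stood between 16810.3 and 50755.8 CPM (read counts scaled to a common library size with TMM factors). Of 8 listed seminal vesicle genes, Svs2, Svs3a and Svs3b were at 0 in all 18 libraries, and others had counts in some. Control cessation replicate 2 had 5 of the 8 at 0. There were 6 at 0 in 10% EtOH replicate 3 of 10 weeks and in 10% EtOH cessation replicate 3, and 7 or 8 elsewhere. Control cessation replicate 3 and 6% EtOH cessation replicate 1 stood apart from the rest on the first principal component (76.4 and 77.7, against -34.3 to 42.4). The identifier of 6% EtOH cessation replicate 1 differs between its label and its count table, and that of 10% EtOH replicate 3 of 10 weeks has a form unlike the others of its group. Whole caput was sequenced, so fewer cells of a type and less RNA per cell cannot be told apart.

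Together the matched genes took 0.636% to 1.40% of a library's counts, with a median of 0.875%. Spink genes held 0.283% to 0.819%, Pate genes 0.121% to 0.443%, Wfdc genes 0.109% to 0.182% and Spint genes 0.0447% to 0.112%. The highest Spint share was that of 10% EtOH cessation replicate 3, where Spint4 and Spint5 were abundant, and the next was 0.0686%. Spink5 alone held 17.5% to 27.6% of the counts of the matched genes. By mean CPM over 18 libraries, which counts reads and not transcripts, the order was led by Spink5 (2106), Spink8 (1144), Pate13 (784), Wfdc10 (777), Pate5 (776), Spink11 (709), Spint2 (502) and Pate6 (426). Dividing by exon length, which is 4785 bases for Spink5 and 459 for Wfdc10, changed that order. Per kilobase of exon, mean levels were 1693 CPM for Wfdc10, 1394 for Spink8, 683 for Pate5 and 440.2 for Spink5. Within groups the median coefficient of variation of the 32 genes at 10 weeks was 7.14% for controls, 17.6% for 6% EtOH and 23.7% for 10% EtOH, and 31.6%, 36.8% and 21.2% after cessation (n = 3 each). At the low end, Wfdc13, Wfdc18, Pate4, Spink4 and Pate2 had fewer than 10 counts in at least 1 library. The other 27 described genes had at least 10 counts in all 18.

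Of the 18 genes that were not described, Wfdc12, Pate7, Pate8 and Pate11 had no count in any library. Pate1, Pate3, Pate9, Pate12, Pate14, Spink1, Spink6, Spink7, Spink14, Wfdc5, Wfdc15a and Wfdc21 had at most 15 counts in any library. Spink6 still entered the test of all genes, so 33 matched genes were tested. The remaining pair, Spint4 and Spint5, was abundant in a single library and is treated last.

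Among the Kazal genes, Spink5, which encodes the multi-domain inhibitor known in skin as a brake on kallikreins, took the most reads. The 10-week libraries had Spink5 at 2229, 1994 and 2034 CPM in controls, 2409, 2553 and 1765 with 6% EtOH and 2166, 2417 and 1734 with 10% EtOH. After cessation the values were 1893, 2276 and 1029 CPM in controls, 1247, 1694 and 2709 with 6% EtOH and 2541, 2662 and 2558 with 10% EtOH. Controls of 10 weeks lay close together, while the lowest libraries of all were control cessation replicate 3 and 6% EtOH cessation replicate 1. Spink8 is a Kazal gene with strong expression in the epididymis. Spink8 at 10 weeks stood at 1013, 904 and 986 CPM in controls, 1446, 957 and 697 with 6% EtOH and 1341, 1245 and 442 with 10% EtOH. The cessation libraries had 1204, 1250.3 and 1110.1 CPM in controls, 733, 851 and 1359 with 6% EtOH and 1421, 1627 and 2009 with 10% EtOH. Its lowest value was that of 10% EtOH replicate 3 of 10 weeks, and its highest that of 10% EtOH cessation replicate 3.

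Spink11, another Kazal gene, ranged more widely. At 10 weeks Spink11 was at 226, 188 and 258 CPM in controls, 491, 402 and 166 with 6% EtOH and 686, 535 and 318 with 10% EtOH. In the cessation groups it stood at 862, 998 and 396 CPM in controls, 253, 227 and 1072 with 6% EtOH and 465, 2855 and 2369 with 10% EtOH. Replicates 2 and 3 of the 10% EtOH cessation group stood above all other libraries, and replicate 1 of that group lay below both control cessation replicates 1 and 2. Spink2, a Kazal gene best known from the sperm acrosome, stood at 59.4 CPM in 10% EtOH replicate 3 of 10 weeks and between 185 and 455 in the other 17 libraries. Spink10, Spink12 and Spink13 ranged from 125 to 395, 123 to 331 and 6.34 to 29.7 CPM. Spink4 did not exceed 1.24 CPM.

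**Figure D1:**
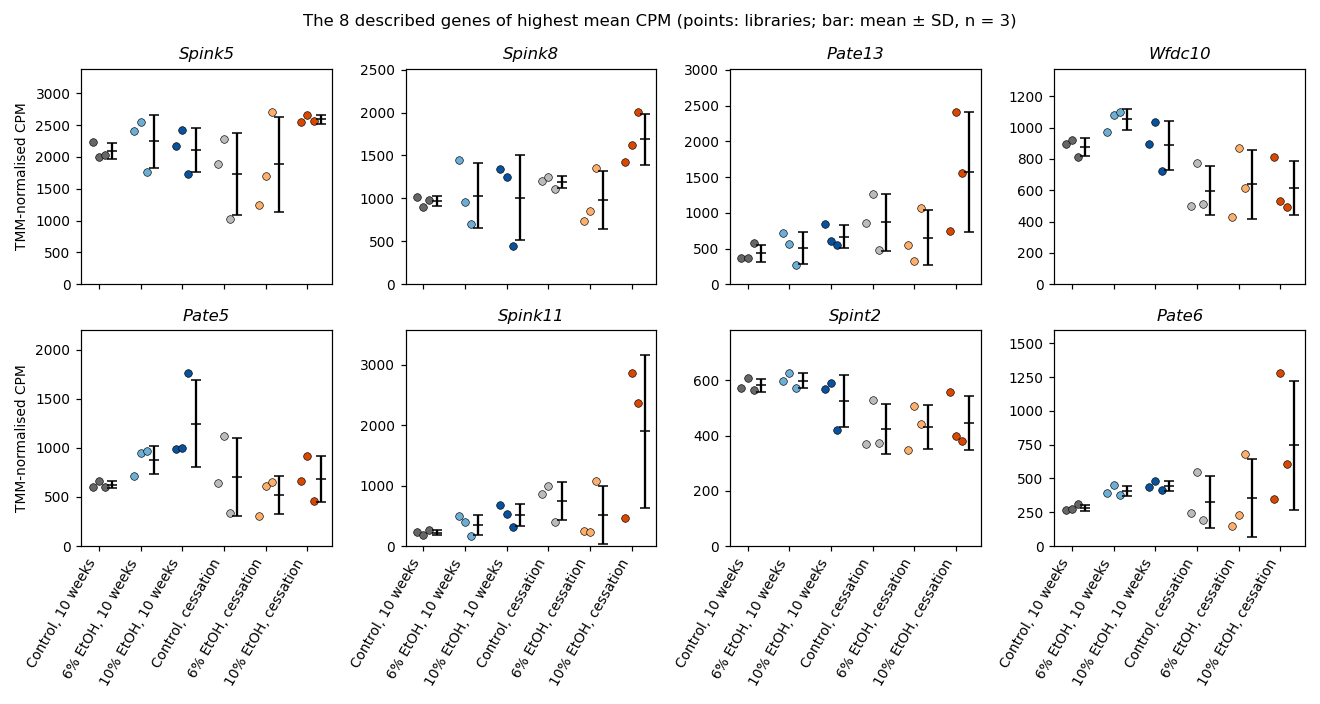
TMM-normalised CPM (linear axis from 0) of the 8 described genes of highest mean level, by group; points are libraries and the bar beside them is the mean ± SD of 3. Controls of 10 weeks lie close together for Spink5 (1994 to 2229 CPM), while Pate13, Spink11 and Pate6 reach their highest values in 10% EtOH cessation replicate 2.

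The Kunitz genes Spint1 and Spint2 encode membrane inhibitors of matriptase and related proteases in epithelia, and Spint2 varied least among the 8 genes above, by 1.81 times between the highest and lowest of 18 libraries. The 10-week libraries had Spint2 at 572, 610.1 and 565 CPM in controls, 599, 625 and 574 with 6% EtOH and 569, 592 and 419 with 10% EtOH. The levels after cessation were 369, 529 and 373 CPM in controls, 346, 506 and 443 with 6% EtOH and 559.6, 399 and 381 with 10% EtOH. Its 3 lowest libraries were 6% EtOH replicate 1 and control replicates 1 and 3 after cessation. Spint1 ranged from 52.6 to 85.8 CPM and Spint3 from 2.31 to 8.25 CPM.

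Most of the Wfdc genes lie in a cluster on mouse chromosome 2. In the gene order of GRCm38, an earlier build than that of the counts, it runs Wfdc2, Spint3, Wfdc6a, Eppin, Wfdc8, Wfdc6b, Wfdc16, Wfdc9, Wfdc10, Wfdc11, Wfdc13, Spint4, Spint5 and Wfdc3. Wfdc10 had the highest level per kilobase of all members. Wfdc10 at 10 weeks stood at 896, 919 and 810.5 CPM in controls, 974, 1082 and 1102 with 6% EtOH and 897, 1039 and 725 with 10% EtOH. The later libraries gave 503, 776 and 514 CPM in controls, 429, 871 and 612 with 6% EtOH and 810.0, 532 and 496 with 10% EtOH. All 9 cessation values lay below the lowest 6% EtOH library of 10 weeks, and 3 of them lay within the range of the other 10-week groups. Eppin, the sperm-coating inhibitor, lies in the same cluster. At 10 weeks Eppin was at 186, 186 and 172 CPM in controls, 204, 259 and 280.2 with 6% EtOH and 221, 245 and 235 with 10% EtOH. After cessation the values were 118, 186 and 97.2 CPM in controls, 79.3, 191 and 150.3 with 6% EtOH and 181, 147 and 118 with 10% EtOH. Its lowest libraries were 6% EtOH replicate 1 and control replicate 3 after cessation, and its highest was 6% EtOH replicate 3 of 10 weeks.

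Some genes of the cluster moved closely together over the libraries, and others less closely. Pearson correlations of log2(CPM + 0.5) over the 18 libraries, which differ together in group, depth and tissue makeup, are given as a description. Eppin and Wfdc6a had r = 0.97, and Wfdc10 had r = 0.92 with Eppin and 0.90 with Wfdc6a. Wfdc8, Wfdc6b and Wfdc9 formed another set, with r = 0.90 for Wfdc8 and Wfdc6b, 0.93 for Wfdc8 and Wfdc9 and 0.94 for Wfdc6b and Wfdc9. Wfdc11 had r = 0.85 with Wfdc6b, 0.80 with Wfdc9 and 0.66 with its neighbour Wfdc10. Wfdc16, Wfdc3, Wfdc13 and Spint3 had r = 0.61, 0.39, -0.35 and 0.54 with Eppin and -0.13, -0.05, 0.33 and -0.39 with Wfdc8. Wfdc16 had r = 0.70 with Wfdc10, and Wfdc2 had 0.66 with Eppin and -0.45 with Wfdc8. Between the sets, Eppin and its neighbour Wfdc8 had r = -0.20, and Wfdc9 and its neighbour Wfdc10 had r = 0.24. Spink2, which lies on another chromosome, had r = 0.95 with Wfdc8 and 0.96 with Wfdc9. Wfdc6a and Wfdc6b have 382 of their 818 and 935 transcript words of 50 bases in common, and how such reads were divided between them is not known. Their r was 0.05.

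The set of Wfdc8, Wfdc6b, Wfdc9 and Spink2 had its lowest values in 10% EtOH replicate 3 of 10 weeks. Levels there were 145, 39.5, 30.3 and 59.4 CPM, the lowest of 18 libraries for each. That library was the lowest for 7 of the 32 genes and the highest for 6, and 6% EtOH cessation replicate 1 was the lowest for 10. Markers of the caput's regions were read in the same library. Of 15 listed markers of the distal caput and corpus, 5 were at their lowest of 18 libraries in 10% EtOH replicate 3 of 10 weeks and 7 at their highest, and the list summed to 104513 CPM, the highest sum of 18. Its mean centred log2 level there was -0.26, against -0.73 in 6% EtOH cessation replicate 1. Defb22 of this list was at 0 in 2 libraries. Of 17 listed markers of the initial segment and proximal caput, none at 0 in any library, 10 were at their highest there and 1 at its lowest. Among the distal markers Lcn5, Rnase9 and Defb30 stood at 886.7, 115.3 and 90.2 CPM, the lowest of 18, and among the proximal ones Adam28 and Cst8 stood at 6775.9 and 3226.5 CPM, the highest of 18. These 5 genes were picked after their values were seen. Over the 18 libraries, Wfdc8, Wfdc9 and Spink2 had r = 0.87, 0.87 and 0.88 with Lcn5. Pate5 and Pate10 had r = 0.94 and 0.90 with Adam28, and 0.96 and 0.91 with Cst8. With Ros1 and Defb41, also of the proximal list, Pate5 had r = 0.90 and 0.59 and Pate10 0.89 and 0.59. The library where the picked genes stood at extremes is among the 18, so a high r was partly fixed by the choice. Of the distal list only Lcn5, Rnase9 and Defb30 were correlated with the 32 genes. The part of the caput's regions in these levels was not tested.

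**Figure D2:**
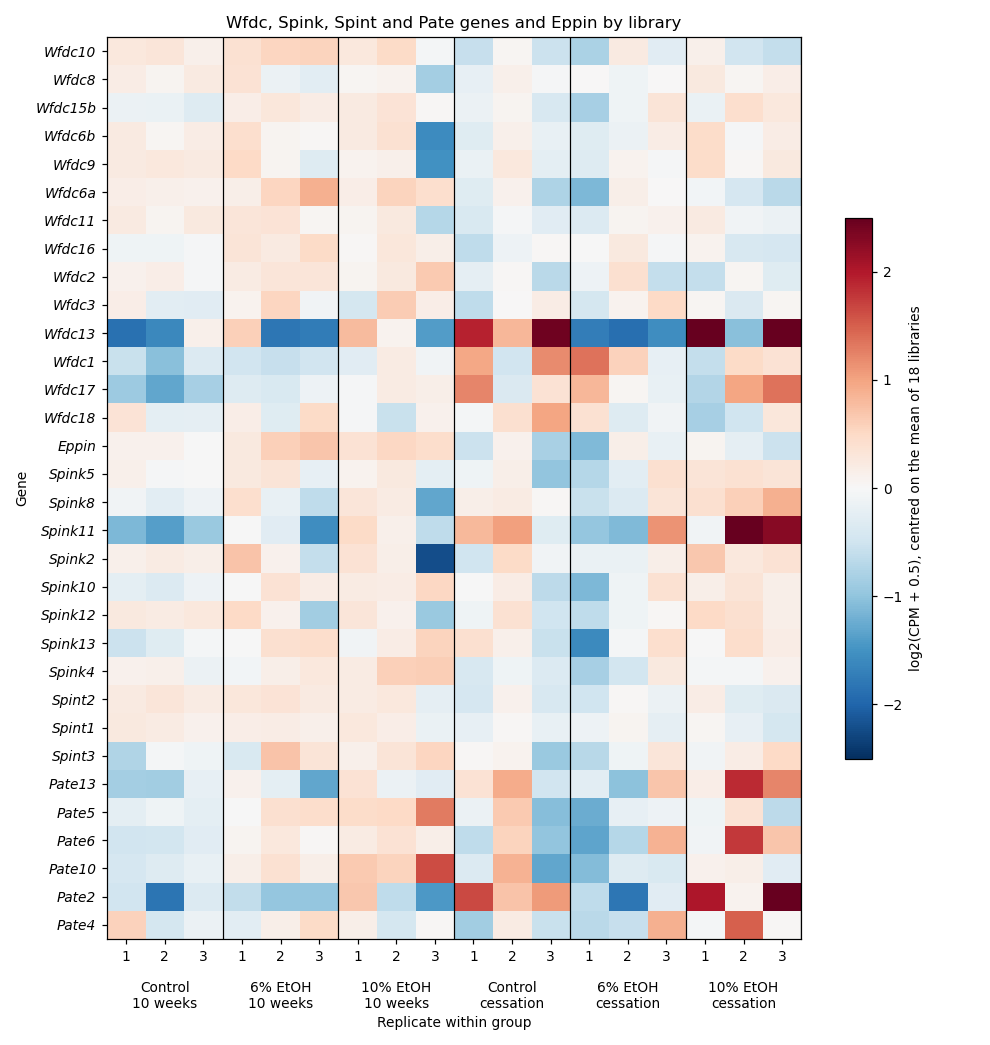
Colour gives log2(CPM + 0.5) of each of the 32 described genes (rows, by family) in each of 18 libraries (columns, by group and replicate), centred on the gene's mean; red is above and blue below it. In 10% EtOH replicate 3 of 10 weeks, Spink2, Wfdc6b, Wfdc8 and Wfdc9 are low while Pate5 and Pate10 are high, and 6% EtOH cessation replicate 1 is the lowest library for 10 genes.

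The described Pate genes lie together on mouse chromosome 9, and 3 of them were among the 8 genes of highest mean CPM. The 10-week libraries had Pate13 at 368, 362 and 573 CPM in controls, 712, 560.0 and 269.5 with 6% EtOH and 851, 599 and 549.5 with 10% EtOH. The cessation libraries had 853, 1266 and 476 CPM in controls, 552, 326 and 1074 with 6% EtOH and 745, 2415 and 1556 with 10% EtOH. Its highest libraries were 10% EtOH cessation replicates 2 and 3. Over the 18 libraries Pate13 had r = 0.96 with Spink11, a gene of another chromosome, and only 0.10 with Pate5. Pate6 at 10 weeks stood at 267, 271 and 308 CPM in controls, 394, 449 and 381 with 6% EtOH and 434, 482 and 412 with 10% EtOH. In the cessation groups it stood at 241, 548 and 189 CPM in controls, 149, 228 and 684 with 6% EtOH and 351, 1277 and 606 with 10% EtOH. As with Pate13, 10% EtOH cessation replicate 2 was highest. Pate5, Pate6 and Pate13 share 32.4%, 16.4% and 26.7% of their 50-base transcript words with other entries (Gm5916, Gm27235 and Gm3867), and how such reads were divided is not known.

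Pate5 and Pate10 were the closest pair of the family, with r = 0.95 over the 18 libraries. At 10 weeks Pate5 was at 599, 663 and 605 CPM in controls, 711, 947 and 972 with 6% EtOH and 983, 1001 and 1757 with 10% EtOH. The 10-week libraries had Pate10 at 26.4, 28 and 31.2 CPM in controls, 39.1, 45.9 and 39 with 6% EtOH and 55.8, 52.3 and 110.2 with 10% EtOH. In both genes the 3 control libraries lay lowest, the 3 libraries with 6% EtOH next and the 3 with 10% EtOH highest, without overlap, and 10% EtOH replicate 3 was highest of all. After cessation the groups overlapped. Pate5 was then at 644, 1125 and 341 CPM in controls, 302, 615 and 655 with 6% EtOH and 666, 921 and 454 with 10% EtOH. Pate10 then stood at 27.9, 65 and 14 CPM in controls, 16.3, 28.2 and 27.1 with 6% EtOH and 38.3, 39.2 and 29.1 with 10% EtOH. The 250 bases before the start of each gene are shown because the pair moved together. They come from RefSeq on GRCm38.p6, at chr9:35844151-35844400 on the minus strand for Pate5 and chr9:35740710-35740959 on the plus strand for Pate10, read 5′ to 3′ along the gene, and capitals mark AGAACA, the half-site of the androgen receptor motif.
Pate5: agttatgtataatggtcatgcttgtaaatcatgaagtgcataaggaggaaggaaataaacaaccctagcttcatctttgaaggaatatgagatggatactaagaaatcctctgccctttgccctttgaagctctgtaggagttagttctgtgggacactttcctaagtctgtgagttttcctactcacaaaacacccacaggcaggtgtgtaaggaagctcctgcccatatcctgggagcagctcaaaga
Pate10: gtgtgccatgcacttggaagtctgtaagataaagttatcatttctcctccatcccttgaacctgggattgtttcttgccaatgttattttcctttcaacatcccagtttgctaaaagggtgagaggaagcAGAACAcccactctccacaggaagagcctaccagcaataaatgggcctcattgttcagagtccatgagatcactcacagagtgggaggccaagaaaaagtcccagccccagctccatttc
Both windows were searched on both strands for AGAACA (or TGTTCT) and for the TATA box letters TATAAA (or TTTATA). Pate10 held 1 AGAACA and Pate5 none of either. The half-site was present in 5 of 38 windows of matched genes and in 16.1% of 32851 mouse promoter windows of that length. The TATA letters were present in 8 of 38 and in 12.4%. A match describes letters, not a bound site, and the genes and motifs were chosen after values were seen.

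The first comparisons asked how 10 weeks of EtOH changed these genes. With edgeR's quasi-likelihood test over all 18 libraries, no gene of 18618 (0%) passed an adjusted p of 0.05 with 6% or with 10% EtOH, and so none of the 32. At an unadjusted p under 0.05 there was 1 gene of the 32 with 6% EtOH, against 2.36% of all genes, and there were 3 with 10% EtOH, against 13.4% of all genes. The smallest p with 6% EtOH belonged to Wfdc16, a WAP gene of the chromosome 2 cluster. Wfdc16 at 10 weeks stood at 13.2, 13.2 and 14 CPM in controls, 18, 16.9 and 20.1 with 6% EtOH and 14.6, 17.5 and 15.9 with 10% EtOH. All 3 libraries with 6% EtOH lay above all controls (log2 fold change 0.44 ± 0.18, adjusted p = 1). The levels after cessation were 9.02, 13.1 and 14.6 CPM in controls, 14.2, 17.1 and 14.1 with 6% EtOH and 15.1, 10.7 and 10.6 with 10% EtOH. The groups then overlapped. Next came Wfdc15b, with a log2 fold change of 0.42 ± 0.22. At 10 weeks Wfdc15b was at 122, 119.8 and 107 CPM in controls, 151, 163 and 153 with 6% EtOH and 157, 169 and 136 with 10% EtOH. The later libraries gave 121, 142 and 101 CPM in controls, 75.6, 124 and 169 with 6% EtOH and 119, 179.7 and 161 with 10% EtOH. Both EtOH groups of 10 weeks lay above the controls of that time, and after cessation all groups overlapped.

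Wfdc17, a WAP gene on chromosome 11 known from activated macrophages, had the next p with 6% EtOH (0.97 ± 0.54) and the second smallest with 10% EtOH (1.43 ± 0.53, adjusted p = 0.299). The 10-week libraries had Wfdc17 at 1.18, 0.788 and 1.27 CPM in controls, 2.04, 1.92 and 2.40 with 6% EtOH and 2.61, 3.15 and 3.01 with 10% EtOH. The groups of 10 weeks were ordered by dose without overlap, at levels of a few CPM. After cessation the values were 6.83, 1.96 and 3.57 CPM in controls, 5.08, 2.76 and 2.26 with 6% EtOH and 1.39, 5.79 and 7.64 with 10% EtOH. Those libraries overlapped between groups. The 10 macrophage markers, all above 0 in all libraries, summed at 10 weeks to 244, 237 and 211.2 CPM in controls, 261, 283 and 288 with 6% EtOH and 268, 317 and 413.3 with 10% EtOH, and to 245.3 to 580.7 CPM after cessation. Both EtOH groups of 10 weeks lay above the controls and overlapped each other. All 10 markers had a log2 fold change above 0 in both comparisons, against 48.9% of all genes with 6% EtOH and 48.8% with 10% EtOH. None passed, nor did any gene of 18618 (0%). Both comparisons share their 3 controls. Wfdc17 had r = 0.65 with Adgre1, 0.70 with C1qa and 0.81 with Myh11, a smooth muscle gene. The part of macrophages in its level was not tested.

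With 10% EtOH at 10 weeks the smallest p was that of Pate10 (log2 fold change 1.35 ± 0.41, adjusted p = 0.299). Pate5 had 1.0 ± 0.38 (adjusted p = 0.305). Without 10% EtOH replicate 3 the values were 0.92 for Pate10 and 0.67 for Pate5. In that replicate the listed markers of the initial segment and proximal caput summed to 56062 CPM, against 25770.0 to 41808 in the other 8 libraries of 10 weeks, and those of the distal caput and corpus to 104513 CPM, against 72090 to 96953. The levels of 10% and of 6% EtOH were not tested against each other.

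In counts, 27 of the 32 genes had a log2 fold change above 0 with 6% EtOH, against 48.9% of all genes, and 22 of 32 with 10% EtOH, against 48.8%. The medians over the 33 tested genes were 0.24 and 0.32, against -0.01 over all genes in both comparisons. By family, the medians with 10% EtOH were 0.68 for 6 Pate, 0.53 for 9 Spink, 0.25 for 14 Wfdc and -0.09 for 3 Spint genes. With 6% EtOH, 11 of the 32 had all 3 EtOH libraries above all 3 controls, against 9.67% of all genes, and none lay wholly below, against 9%. With 10% EtOH, 13 lay wholly above, against 15.2%, and Wfdc9 alone lay wholly below, against 15.5%. The 13 were Pate5, Pate6, Pate10, Wfdc1, Wfdc6a, Wfdc15b, Wfdc16, Wfdc17, Eppin, Spink4, Spink10, Spink11 and Spint3. The genes wholly below with 6% EtOH numbered 4 without 6% EtOH replicate 1 (background 18.5%), and 1 without control replicate 2 (15.3%) or control replicate 3 (13.8%). Those wholly below with 10% EtOH numbered 3 without 10% EtOH replicate 2 (21.2%), and 2 without control replicate 2 or 10% EtOH replicate 1 (21% in both). Both doses share their controls, so the 2 counts are not independent.

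Other fits than that of all 18 libraries by edgeR called some of these genes with 10% EtOH. In a fit of the 9 libraries of 10 weeks alone, whose common biological coefficient of variation was 16.6% against 25.4% for all 18, 6 of the 32 passed, all higher, against 6.17% of 17154 genes. They were Pate6 (0.66 ± 0.09, adjusted p = 0.0135), Spink10 (0.56 ± 0.12, 0.0263), Wfdc15b (0.42 ± 0.09, 0.0277), Wfdc17 (1.44 ± 0.31, 0.0280), Pate10 (1.37 ± 0.26, 0.0289) and Pate5 (1.02 ± 0.22, 0.0312). DESeq2 on all 18 libraries called Pate10 (adjusted p = 0.0494), among 81 genes in all (0.223% of 36360, with low-count genes included). With no filter on low counts edgeR called 6, against 2.02% of 36360 genes: Wfdc13, Pate10, Pate6, Pate5, Wfdc17 and Spink11. With 6% EtOH none of these fits called any of the 32.

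**Figure D3:**
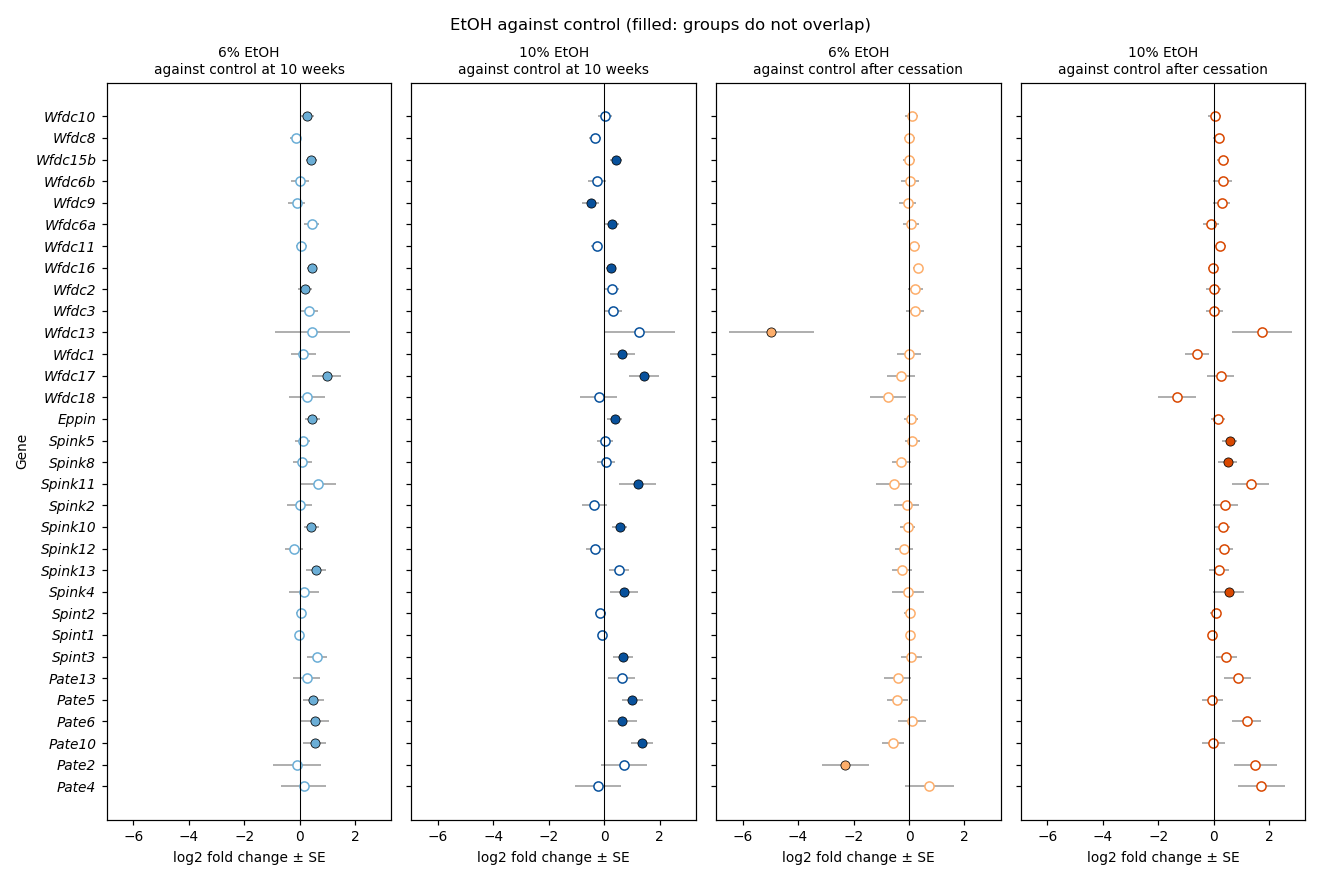
Log2 fold change ± SE (edgeR, all 18 libraries) of each of the 32 genes in the 4 comparisons of EtOH with control; filled points are genes whose 3 EtOH libraries do not overlap the 3 controls. There are 11 filled points with 6% EtOH and 14 with 10% EtOH at 10 weeks, and 2 and 3 after cessation, and none passed an adjusted p of 0.05.

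The same contrasts after cessation asked what remained once EtOH had been stopped. No gene (0%) passed with either dose, by edgeR or by DESeq2. With no filter on low counts edgeR called Wfdc13 and Pate2 with 6% EtOH (0.14% of 36360 genes). With 10% EtOH it called Wfdc13, Pate2, Pate6, Pate13 and Spink11 (1.12%). At an unadjusted p under 0.05 edgeR had 2 of the 32 with 6% EtOH, against 1.62% of all genes, and 1 with 10% EtOH, against 6.66%. With 6% EtOH these were Wfdc13 and Pate2, genes of low level. Among cessation libraries Wfdc13 was at 9.20, 4.05 and 13.3 CPM in controls, 0.279, 0.197 and 0.377 with 6% EtOH and 21.9, 0.751 and 66.3 with 10% EtOH. Wfdc13 at 10 weeks stood at 0.205, 0.338 and 2.31 CPM in controls, 3.38, 0.232 and 0.267 with 6% EtOH and 3.97, 2.21 and 0.472 with 10% EtOH. The 6% EtOH libraries after cessation lay below all 3 controls of their time and beside 10-week control replicates 1 and 2 (log2 fold change -4.96 ± 1.53, adjusted p = 1). Among cessation libraries Pate2 was at 10.7, 5.34 and 6.95 CPM in controls, 1.81, 0.526 and 2.45 with 6% EtOH and 14.1, 3.31 and 47.8 with 10% EtOH. At 10 weeks Pate2 was at 2.05, 0.507 and 2.31 CPM in controls, 1.85, 1.34 and 1.33 with 6% EtOH and 5.22, 1.81 and 0.826 with 10% EtOH. It too had 6% EtOH libraries below its cessation controls (-2.29 ± 0.86) and inside the range of 10 weeks. These were the only 2 of the 32 wholly below control, against 2.01% of all genes, and none lay wholly above, against 2%. Without 6% EtOH cessation replicate 3 there were 5 wholly below (background 6.96%). The next p was that of Wfdc16 (0.31 ± 0.18), whose value was 0.13 without control cessation replicate 1 and 0.205 without 6% EtOH cessation replicate 2. Wfdc13 and Pate2 had r = 0.91 over the 18 libraries although they lie on different chromosomes.

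With 10% EtOH after cessation the smallest p values were those of Pate6 (1.19 ± 0.52, adjusted p = 0.744), Spink5 (0.58 ± 0.28) and Pate4 (1.71 ± 0.85). The Pate6 value was 0.55 without 10% EtOH cessation replicate 2 and 1.79 without control cessation replicate 2. Among cessation libraries Pate4 was at 0.119, 0.798 and 0.265 CPM in controls, 0.209, 0.263 and 1.60 with 6% EtOH and 0.597, 2.71 and 0.649 with 10% EtOH. The 10-week libraries had Pate4 at 1.18, 0.338 and 0.520 CPM in controls, 0.446, 0.755 and 1.07 with 6% EtOH and 0.753, 0.335 and 0.649 with 10% EtOH. Pate4 was near the limit of detection throughout, and its exons overlap those of Pate2 on the other strand by 217 bases. Its value was 0.65 without 10% EtOH cessation replicate 2 and 2.74 without control cessation replicate 2. That of Spink5 was 0.32 without control cessation replicate 3. Spink5, Spink8 and Spink4 lay wholly above the controls, 3 of 32 against 2.49% of all genes, and none lay wholly below, against 3.97%. That count was 15 without control cessation replicate 2 (background 13.2%), 8 without 10% EtOH cessation replicate 1 (10.3%) and 7 without 10% EtOH cessation replicate 2 (5.01%). In all, 25 of 32 had a log2 fold change above 0 with 10% EtOH, against 47.9% of all genes, and 16 of 32 with 6% EtOH, against 48%.

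Whether the effect of a dose differed between the times was tested as an interaction, and no gene (0%) passed for either dose by edgeR. DESeq2 called none of the 32, and 3 genes in all for 10% EtOH (0.00825% of 36360). With no filter on low counts edgeR called Wfdc13, Pate2, Pate10 and Spink11 for 6% EtOH (0.242% of 36360 genes). For 10% EtOH it called Pate10 and Pate5 (1.06%). At an unadjusted p under 0.05 there was 1 of the 32 for each dose, against 3.01% and 7.44% of all genes. For 6% EtOH the smallest p values were those of Wfdc13 (-5.42 ± 2.06), Pate10 (-1.12 ± 0.58) and Pate2 (-2.18 ± 1.22). The value of Wfdc13 was -3.08 without 6% EtOH replicate 1 of 10 weeks, and that of Pate10 was -0.35 without control cessation replicate 2. For 10% EtOH they were those of Pate10 (-1.36 ± 0.57, adjusted p = 0.651), Wfdc1 (-1.26 ± 0.62) and Pate5 (-1.05 ± 0.53). Without control cessation replicate 2 the difference for 10% EtOH was -0.59 in Pate10 and -0.53 in Pate5.

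The 9 cessation libraries were then compared with the 9 of 10 weeks, as the mean over the 3 treatments. Time since treatment began, any difference in the age of the mice and the collection of the tissue cannot be told apart in this comparison. In the 6% and 10% EtOH groups the end of EtOH cannot be told apart from them either. By edgeR 11 of the 32 genes passed, against 17.9% of all genes, 6 of them lower after cessation (7.21%) and 5 higher (10.7%). The count was 11 with DESeq2 as well, against 12.1% of 36360 genes. It was 14 with no filter on low counts, against 12.6% of 36360, a base that includes low-count genes left out of the main fit. The lower ones were Wfdc10 (-0.60 ± 0.14, adjusted p = 0.0174), Eppin (-0.64 ± 0.15, 0.0182), Wfdc6a (-0.65 ± 0.16, 0.0212), Spint2 (-0.39 ± 0.11, 0.0282), Spint1 (-0.28 ± 0.08, 0.0292) and Wfdc2 (-0.44 ± 0.15, 0.047), the last a secreted WAP protein first found in the human epididymis. Wfdc6a at 10 weeks stood at 46, 44.9 and 44.5 CPM in controls, 45.3, 60 and 76.6 with 6% EtOH and 46.2, 61 and 55 with 10% EtOH. The cessation libraries had 33.3, 44.4 and 23.7 CPM in controls, 18.6, 45.9 and 41.4 with 6% EtOH and 39.2, 30.7 and 25.6 with 10% EtOH. For Wfdc6a 6% EtOH cessation replicate 1 was lowest, as for Eppin.

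The 5 higher genes were Wfdc1 (1.01 ± 0.25, adjusted p = 0.0202), Wfdc17 (1.12 ± 0.30, 0.0235), Spink11 (1.39 ± 0.38, 0.0266), Pate2 (1.77 ± 0.49, 0.0275) and Pate13 (0.86 ± 0.28, 0.0468). Wfdc1 is a WAP protein known from the stroma of the prostate. At 10 weeks Wfdc1 was at 3.34, 2.25 and 3.93 CPM in controls, 3.57, 3.31 and 3.54 with 6% EtOH and 4.12, 6.04 and 4.84 with 10% EtOH. In the cessation groups it stood at 10.6, 3.56 and 12.3 CPM in controls, 13.9, 7.88 and 4.43 with 6% EtOH and 3.25, 7.36 and 6.78 with 10% EtOH. Its highest libraries were 6% EtOH replicate 1 and control replicates 3 and 1 after cessation. By treatment, the log2 differences of Wfdc1 between the times were 1.47 ± 0.44 in the controls, 1.34 ± 0.44 under 6% EtOH and 0.21 ± 0.43 under 10% EtOH, and those of Pate2 were 2.23 ± 0.83, 0.05 ± 0.90 and 3.03 ± 0.82. For Eppin they were -0.44 ± 0.26, -0.82 ± 0.26 and -0.65 ± 0.26 in the same order. These values were not tested against each other over the 3 treatments.

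No gene of the 32 separated the 9 cessation from the 9 earlier libraries without overlap, against 0.451% of all genes. Other marker levels differed between the times as well. All 14 immediate early genes were above 0 in all libraries, and their sum was 528 to 726 CPM at 10 weeks and 935 to 2721 CPM after cessation. The 8 endothelial markers, also all above 0, summed to 43.5 to 90.4 and 50.7 to 303 CPM. The 8 smooth muscle markers, again all above 0, summed to 1551 to 2304 and 1431 to 2345 CPM, with a mean centred log2 level of -0.79 to 0.06 and -0.49 to 1.09. Wfdc1 had r = 0.95 with Acta2, 0.96 with Myh11 and 0.94 with Pecam1, and Spint2 had r = -0.80, -0.84 and -0.76. At an adjusted p under 0.05 by edgeR, 10.7% of all genes rose between the times and 7.21% fell. Of the markers of the initial segment and proximal caput 5 of 17 fell and 1 rose, and their sum was 25770.0 to 56062 CPM at 10 weeks and 13610.0 to 37134 CPM after cessation. Of those of the distal caput and corpus 4 of 15 fell and none rose, with sums of 72090 to 104513 and 38239 to 86767 CPM. Eppin had r = 0.84 with Ros1, 0.84 with Adam28, 0.87 with Cst8 and 0.16 with Defb41, all of the proximal list. Of the markers of ciliated cells of the efferent ducts, all above 0, 9 of 16 rose and none fell, with sums of 60.7 to 161 and 65.5 to 471 CPM. The part of all these markers in the time differences was not tested.

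The count of 11 varied with single libraries. The share of all genes called in the same fits is given in parentheses, against 17.9% with all 18 libraries. The count was 3 without 10% EtOH cessation replicate 3 (4.41%), 4 without control replicate 2 of 10 weeks (5.54%) or control cessation replicate 1 (8.05%), and 5 without 10% EtOH replicate 2 of 10 weeks (8.89%). It was 6 without control replicate 1 (8.44%), 6% EtOH replicate 2 (8.34%) or 6% EtOH replicate 3 (7.78%) of 10 weeks, or without control replicate 3 (6.69%) or 6% EtOH replicate 1 (6.74%) after cessation. Without 10% EtOH replicate 1 of 10 weeks (7.07%) or 10% EtOH cessation replicate 2 (8.43%) it was 7. It was 10 without control replicate 3 (14.1%), 6% EtOH replicate 1 (13.6%) or 10% EtOH replicate 3 (18.6%) of 10 weeks, or 6% EtOH cessation replicate 3 (19.1%). After cessation it was 11 without 6% EtOH replicate 2 (20.7%) or 10% EtOH replicate 1 (25.6%), and 12 without control replicate 2 (30%). Without both libraries that stood apart it was 3, namely Wfdc10, Eppin and Wfdc6a, against 2.47% of all genes. Wfdc10, Eppin and Wfdc1 passed in all 18 fits that left out 1 library, Wfdc6a in 17, Wfdc17 in 14, Spink11 in 11, Pate2 in 10, Spint1 and Spint2 in 8 each, Pate13 in 4 and Wfdc2 in 3. In the 6 control libraries alone none of them, and no gene of 16986 (0%), passed.

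**Figure D4:**
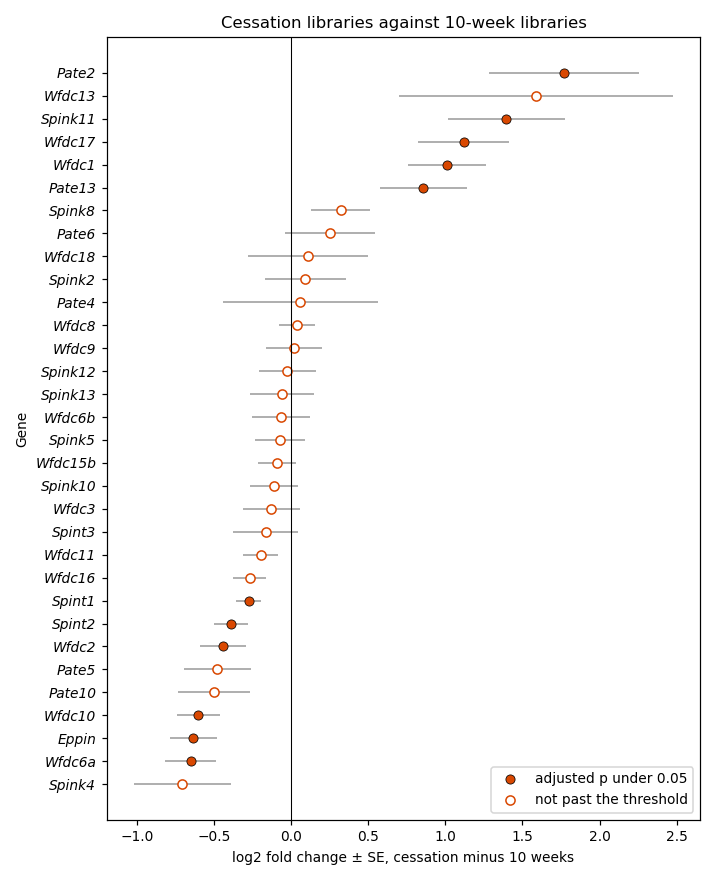
Log2 fold change ± SE (edgeR) of the 32 genes, cessation libraries minus 10-week libraries, averaged over the 3 treatments and sorted by value; filled points have an adjusted p under 0.05. The 6 filled points below 0 run from -0.65 (Wfdc6a) to -0.28 (Spint1), and the 5 above 0 from 0.86 (Pate13) to 1.77 (Pate2).

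The window before the start of Wfdc10, the gene of smallest p in this comparison, lies at chr2:164655796-164656045 on the plus strand of GRCm38.p6 (RefSeq) and is shown with those of Spint4 and Spint5 (chr2:164698251-164698500 and chr2:164715055-164715304, both plus), which follow it in the cluster and differ from it in being close to silent in most libraries. None held AGAACA or TATAAA on either strand, so there are no capitals.
Wfdc10: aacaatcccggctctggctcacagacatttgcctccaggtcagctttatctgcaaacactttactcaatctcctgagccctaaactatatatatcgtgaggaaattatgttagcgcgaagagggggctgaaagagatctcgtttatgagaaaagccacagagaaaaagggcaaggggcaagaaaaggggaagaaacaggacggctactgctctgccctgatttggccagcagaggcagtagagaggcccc
Spint4: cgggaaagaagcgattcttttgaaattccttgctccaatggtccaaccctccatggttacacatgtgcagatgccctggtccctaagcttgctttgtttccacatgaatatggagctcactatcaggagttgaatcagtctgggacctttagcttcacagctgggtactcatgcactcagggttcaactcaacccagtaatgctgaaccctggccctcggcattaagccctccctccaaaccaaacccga
Spint5: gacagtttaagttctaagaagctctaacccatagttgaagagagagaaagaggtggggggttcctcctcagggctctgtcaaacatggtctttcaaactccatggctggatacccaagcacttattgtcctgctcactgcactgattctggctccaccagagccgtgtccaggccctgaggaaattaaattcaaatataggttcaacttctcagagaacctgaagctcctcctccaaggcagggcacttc
Spint4 and Spint5, both Kunitz genes, were all but absent from 17 libraries and abundant in 10% EtOH cessation replicate 3. Spint4 had 7300 counts there (526 CPM), while 10 of the other 17 libraries had none and the highest of them, 10% EtOH cessation replicate 2, had 46. That is 152-fold more CPM than in the next library. Spint5 had 1577 counts (114 CPM) in the same library and 0 in the other 17, which is at least 402-fold above the level that 3 counts would give in the shallowest of them. Replicate 3 was also the highest library for the neighbour Wfdc13 (66.3 CPM) and for Pate2 (47.8 CPM). Replicates 1 and 2 of its group had 21.9 and 0.751 CPM of Wfdc13. With 1 library of 3, neither gene bears a comparison between groups, and neither passed the filter on low counts.

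**Figure D5:**
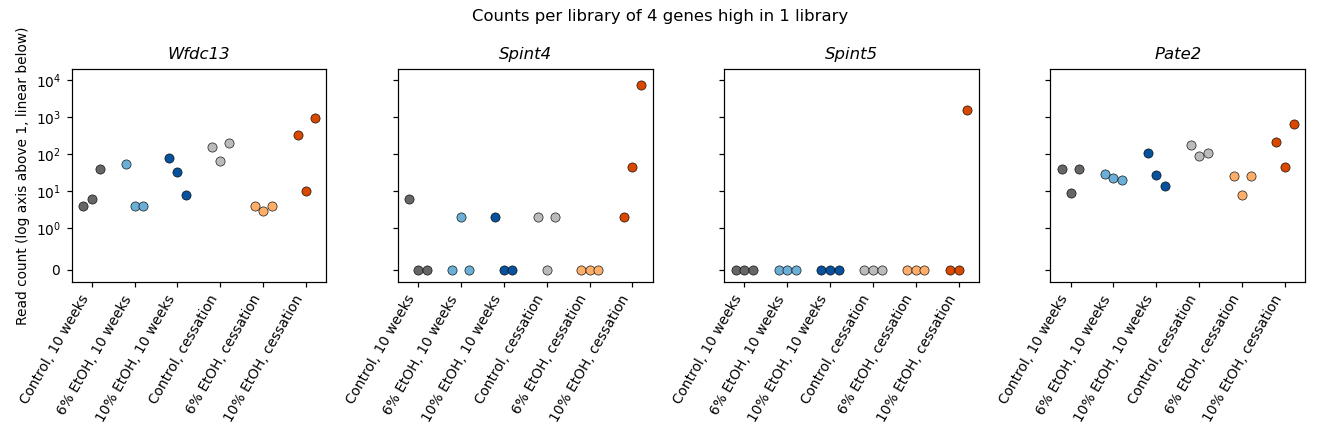
Read counts per library (log axis above 1, linear from 0 to 1) of Wfdc13, Spint4, Spint5 and Pate2 by group; each point is 1 library. In 10% EtOH cessation replicate 3 Spint4 reaches 7300 and Spint5 1577 counts, while Spint5 is 0 in the other 17 libraries.

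Proteases and inhibitors of other families were read for context. No gene of 18618 (0%) passed in any of the 4 EtOH comparisons, and so no member of 4 lists did. The lists were 20 tested relatives with WAP, Kunitz or Kazal domains, 22 serpins, 33 trypsin-like proteases and their activators, and 22 Ly6/uPAR genes. With 10% EtOH at 10 weeks the protease list member of smallest p was Met, the receptor of hepatocyte growth factor (0.69 ± 0.19, adjusted p = 0.299). With time, when 10.7% of all genes rose and 7.21% fell, 5 of the 20 relatives rose and none fell, among them Fst (1.87 ± 0.49), Spock2 (0.89 ± 0.24), Tfpi (1.03 ± 0.29) and Fstl1 (0.80 ± 0.24). Of the 22 serpins 8 rose and 1 fell, Serpinf2 (-0.61 ± 0.14). Of the 33 proteases and activators 7 rose and 6 fell. The falls included St14, which encodes matriptase, the target of Spint1 and Spint2 (-0.50 ± 0.11), and Hgfac (-0.55 ± 0.11). In the Ly6/uPAR list of 22, 4 rose and 4 fell, with Plaur, the urokinase receptor, at 3.91 ± 0.72 and Ly6g5c at -0.83 ± 0.22. The median log2 change with time was 0.66 for the relatives, 0.75 for the serpins, 0.28 for the proteases and 0.18 for the Ly6/uPAR list, against -0.07 for the 33 tested members and 0.05 for all genes.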

How the data were processed

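RNA sequencing of the caput epididymis gave 18 libraries in 6 groups of 3, by their labels. The deposited values are whole-number read counts per gene, 1 table per library, made by the authors with Trimmomatic, STAR and featureCounts on GRCm39 (mm39), per the submitters' processing notes. Tool versions, the gene annotation, strandedness and the treatment of multi-mapped reads are not stated there. It is therefore not known whether reads of genes that overlap on opposite strands, such as Wfdc6b and Wfdc8, were told apart.

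From the counts, CPM were computed with TMM scaling (factors 0.914 to 1.20). Genes were kept with filterByExpr (minimum count 10, minimum total 15), which left 18618. Each of 7 comparisons used edgeR 4.0.16 (R 4.3.3) and its robust quasi-likelihood fit, in which each group had a term and all 18 libraries shared the spread, at a Benjamini-Hochberg adjusted p of 0.05 over all tested genes, two-sided. The SE is that implied by the test. The test was run on simulated data with 1 spread per gene for all 18 libraries. For 10% EtOH at 10 weeks it recovered 61 of 100 changes of log2 size 1 and 96 of 100 of size 2. It made 6 false calls among 18106 genes. Changes were placed only in genes above a cut on mean CPM. Wfdc17 (mean 3.09 CPM) and Spink4 (0.664) lay below the cut, so the recovery does not cover such genes. The spread of the data differed between the times, so these rates need not hold for the data. Replicate counts differed by far more than sampling noise (chi-square per degree of freedom at least 5.79), so none was counted as a repeat. Replicate numbers follow the order of deposit. The ± values of fold changes include the spread between libraries, while the floor of 3 counts covers counting error only.

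Values per library are given for the 8 genes of highest mean CPM, for Eppin and, in each comparison, for the genes past the threshold (at most 8, by p) or else the 3 of smallest p. From each list of related genes, up to 4 past the threshold or the 1 of smallest p are named. Members, lists and this rule were chosen with earlier results of these data known. Alternatives were DESeq2 1.42.0, its size factors, no filter, a filter of 30 counts in 3 libraries, fits of the libraries of 1 time or of the controls, leaving out each library and, chosen after seeing the data, leaving out 2 libraries together. Exon lengths, gene order, overlaps and shared 50-base words come from GENCODE M21 (GRCm38), an earlier build, so no gene coordinates are given. Promoter windows come from RefSeq (GRCm38.p6).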

Additional observations from a re-analysis of the deposited data

Results flagged for a closer look

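Spint4 had 7300 counts in 10% EtOH cessation replicate 3 and at most 46 in any other library, and Spint5 had 1577 counts there and 0 in the other 17. Neither gene enters the comparisons, since neither passed the filter on low counts, and both were picked out because their count in 1 library lay far above that of all control libraries. Groups of 3 are too small for a test of single outlying samples.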

How the results depend on the processing

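For the 6 comparisons of EtOH, no member passed in any fit that left out 1 library (lowest 0, highest 0), with DESeq2's size factors, with a filter of 30 counts in 3 libraries or without both libraries that stood apart. With no filter on low counts, 6 members passed with 10% EtOH at 10 weeks, 2 with 6% EtOH and 5 with 10% EtOH after cessation, and 4 and 2 in the interactions of 6% and 10% EtOH; the cause was not tested. With 10% EtOH at 10 weeks DESeq2 called 1 and the fit of the 9 libraries of that time 6. For time, leaving out 1 library gave 3 to 12 members, the 6 control libraries alone 0, and leaving out both libraries that stood apart 3, against 11. Fits of fewer libraries have fewer samples and estimate their own spread, so their counts can fall or rise, and both occurred here. The part of each in these counts was not tested. Over single genes, 23 values gained and 89 lost their call in an alternative, 73 moved, and none that had passed reversed.

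No paired analysis was possible because the labels give no replicate numbers that groups share. Depth limits Wfdc13, Wfdc18, Pate2, Pate4 and Spink4, which had fewer than 10 counts in at least 1 library. The spread was larger after cessation (common biological coefficient of variation 30.9%) than at 10 weeks (16.6%), and a p that misses the threshold does not show that groups were alike.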
